A study of Rattus norvegicus with 38 samples.

Results

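The genes described here are Itgam, C5ar2, C5, C8a and Clu, which act in or on the complement system, and C1ql2, a relative of the C1q chains, each of which carried H3K27ac peaks in the authors' tables. These 6 genes accounted for 11 peaks, of which 9 belonged to the substantia nigra (SN) and 2 to the motor cortex, out of 151509 peaks listed for both regions. A peak was taken as a member where a row of the authors' tables of differentially acetylated peaks, or of their table of complement-related SN peaks, named one of these genes and where that row had the same chromosome, start and end as a peak in the deposited lists. All rows found for the 6 genes matched a listed peak exactly. The Itgam promoter peak stood in tables of both kinds, the C8a peaks of the motor cortex in a table of differentially acetylated peaks alone, and the other SN peaks in the table of complement-related peaks alone. The gene name of a peak was the authors' annotation by position. All peaks of C5, C8a, Clu and C1ql2 were classed as distal intergenic. Whether a peak regulates the gene it is named for was not tested, and distances to gene starts were not computed.

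H3K27ac ChIP-seq was performed on 9 male Lewis rats of 8 to 10 months. Rotenone, an inhibitor of mitochondrial complex I used to model Parkinson's disease, was injected intraperitoneally at 2.8 mg/kg daily for 21 days in 5 rats. The other 4 rats were given vehicle, which the sample labels call PBS, the protocol text Miglyol, and the methods of the study DMSO in Miglyol. Brains were dissected 24 h after the last injection, and the labels name the tissues ventral midbrain and cortex, here called SN and motor cortex. This gave 18 tissue libraries, 2 of them with 1 sequencing lane (motor cortex, rotenone), and 4 runs of input DNA, all labelled as motor cortex. The authors combined all rats of a region, rotenone and vehicle together, before calling peaks. Each deposited list therefore gives positions for 1 region, with no read count, height or score, and neither the spread between rats nor the depth of a library could be computed from it. The study describes its motor cortex libraries as the more deeply sequenced, so region and depth cannot be told apart in any difference between the lists. It also reports far fewer SN peaks than the deposited SN list holds. For the motor cortex, the reported number and the deposited list are close. Why the SN list is longer is not given in the sources used here. How far this raises the SN counts below relative to those of the motor cortex was not tested. No difference below has a replicate error or a test, and rotenone was not compared with vehicle. The tissue is bulk, so a peak missing from a region may reflect fewer cells of a type or less acetylation per cell, which cannot be told apart, and the tissue labels were not checked against marker genes because a gene annotation of the build of the lists was not used here.

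Complement is a cascade of plasma and locally made proteins that tags targets and recruits phagocytes. C5 is the component whose cleavage releases the fragment C5a and starts the membrane attack complex, to which C8a contributes the alpha chain of the eighth component. C5ar2 is a second receptor for C5a, Itgam (CD11b) is the alpha chain of complement receptor 3 on microglia and other myeloid cells, and Clu (clusterin) is a secreted chaperone that inhibits the terminal complex. C1ql2 belongs to the C1q-like synaptic proteins, which share the C1q domain and are not components of the cascade. H3K27ac, acetylation of a lysine in the tail of histone H3, marks active promoters and enhancers.

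The promoters of Itgam and C5ar2 are printed because these are the members with a peak that the authors' ChIPseeker annotation placed in a promoter. Both are RefSeq sequences of GRCr8, running from 250 bases before to 50 bases after the gene start, 5′ to 3′ on the strand of the gene. Capitals mark exact matches to 6 motifs that were searched on both strands, namely GAGGAA (the core bound by PU.1 and other ETS factors), TTCNNNGAA (STAT), TGANTCA (AP-1), CCAAT (the CCAAT box), TATAAA (the TATA box) and GGGCGG (the GC box). The Itgam promoter lies at chr1:192089342-192089641 on the plus strand and the C5ar2 promoter at chr1:86070504-86070803 on the minus strand. These positions are of GRCr8 and cannot be set against the peak positions given below, which are of mRatBN7.2.
Itgam: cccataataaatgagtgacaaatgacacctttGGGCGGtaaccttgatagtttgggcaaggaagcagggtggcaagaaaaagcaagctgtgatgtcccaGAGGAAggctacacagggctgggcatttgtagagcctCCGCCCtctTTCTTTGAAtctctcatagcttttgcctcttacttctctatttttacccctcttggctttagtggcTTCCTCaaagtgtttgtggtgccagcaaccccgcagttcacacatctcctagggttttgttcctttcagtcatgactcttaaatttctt
C5ar2: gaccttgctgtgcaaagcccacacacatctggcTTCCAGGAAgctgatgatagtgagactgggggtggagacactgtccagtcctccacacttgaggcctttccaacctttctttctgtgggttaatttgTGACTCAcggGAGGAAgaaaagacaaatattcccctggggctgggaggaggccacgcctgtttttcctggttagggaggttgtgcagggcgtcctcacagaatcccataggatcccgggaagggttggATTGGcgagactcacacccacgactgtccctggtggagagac

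In the Itgam promoter, GAGGAA was found at bases 100 to 105 and, on the opposite strand, at bases 212 to 217, counted from 1 at the 5′ end of the printed sequence. It also held a STAT match at bases 146 to 154 and GC boxes at bases 33 to 38 and, on the opposite strand, 137 to 142. The C5ar2 promoter held GAGGAA at bases 141 to 146, a STAT match at bases 34 to 42, an AP-1 match at bases 131 to 137 and a CCAAT box on the opposite strand at bases 259 to 263. No match overlapped another in either sequence. Among 33469 promoters of the same length, 27.6% held GAGGAA, 8.87% the STAT motif, 7.33% the AP-1 motif, 37.5% the CCAAT box, 14.2% the TATA box and 33.1% the GC box. The C8a promoter held the STAT motif alone, and the C5 and C1ql2 promoters held none of the 6. GC content differed widely between these promoters, from 38% in C5, 40% in C8a and 46.3% in Itgam to 55% in C5ar2 and 70.3% in C1ql2, beside a median of 51.7% over all promoters, and the C1ql2 promoter held 33 CpG dinucleotides against 3 in Itgam and 6 in C5ar2. A match is a description of the letters and not a measured binding site. Promoters were matched for 5 of the 6 genes, all but Clu.

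Within 50 kb of the Itgam member peaks, peaks were listed in the SN alone. Its 2 peaks, one annotated to the promoter at chr1:182658509-182660142 (1634 bp) and one to an intron at chr1:182679396-182680892 (1497 bp), lay 19253 bp apart, and no motor cortex peak overlapped either. The nearest motor cortex peak, at chr1:182603107-182603757, was 54.751 kb from the promoter peak and 75.638 kb from the intronic peak. Within 50 kb of the 2 peaks, a window of 122.384 kb, the SN list held 13 peaks covering 11156 bp and the motor cortex list held 0. The promoter peak was the widest of the 13, which ranged from 363 to 1634 bp. Next to it, 4 narrower peaks of 615 to 1005 bp followed one another between 182649566 and 182653392. In the RefSeq gene order, Itgam has Trim72 on one side and on the other the integrin alpha genes Itgax (CD11c, the alpha chain of complement receptor 4) and Itgad, but which of these SN peaks belong to a neighbour was not determined.

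The stretch without motor cortex peaks at Itgam ran from 182603757 to 182798372, a gap of 194.614 kb between adjacent motor cortex peaks that held 14 SN peaks. Gaps at least this long made up 2.72% of the 80743 gaps in the motor cortex list. Of all 80743 gaps of any length, 31, or 0.0384%, held 14 or more SN peaks, with a maximum of 94, and 66937 held 0. The gap at Itgam was reached through an SN member, so these shares do not give how often an SN peak lies in such a gap. The comparison of gaps was chosen after the values at Itgam had been seen. Peaks in both lists are numbered in order of position and some numbers are missing, so that 58.2% of the numbers are listed for the motor cortex and 47.6% for the SN. Inside this gap 9 motor cortex numbers are missing, and what they stood for is not given in the sources used here. A region outside the list is therefore not a region shown to lack acetylation.

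C5ar2 was the member whose surroundings were most alike in the 2 regions in peak number and covered length. Its 2 SN peaks, both annotated to the promoter, were at chr1:76941458-76943368 (1911 bp) and chr1:76943724-76946132 (2409 bp), 355 bp apart. The motor cortex peak at 76941009 to 76943353 covered 99.2% of the first. A second motor cortex peak, at 76944197 to 76945572 (1376 bp), lay wholly inside the other SN peak and covered 57.1% of it. Within 50 kb there were 11 SN peaks and 9 motor cortex peaks, covering 14726 and 14034 bp, or 14.1% and 13.4% of the window, and 8 of the SN peaks and 7 of the motor cortex peaks overlapped the other region. The widest peaks of the window were also shared, at 76975823 to 76979239 in the SN (3417 bp) and 76975611 to 76979600 in the motor cortex (3990 bp). C5ar2 is followed in the gene order by C5ar1, the first receptor for C5a, so peaks of the 2 receptor genes may fall in one window.

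**Figure D1:**
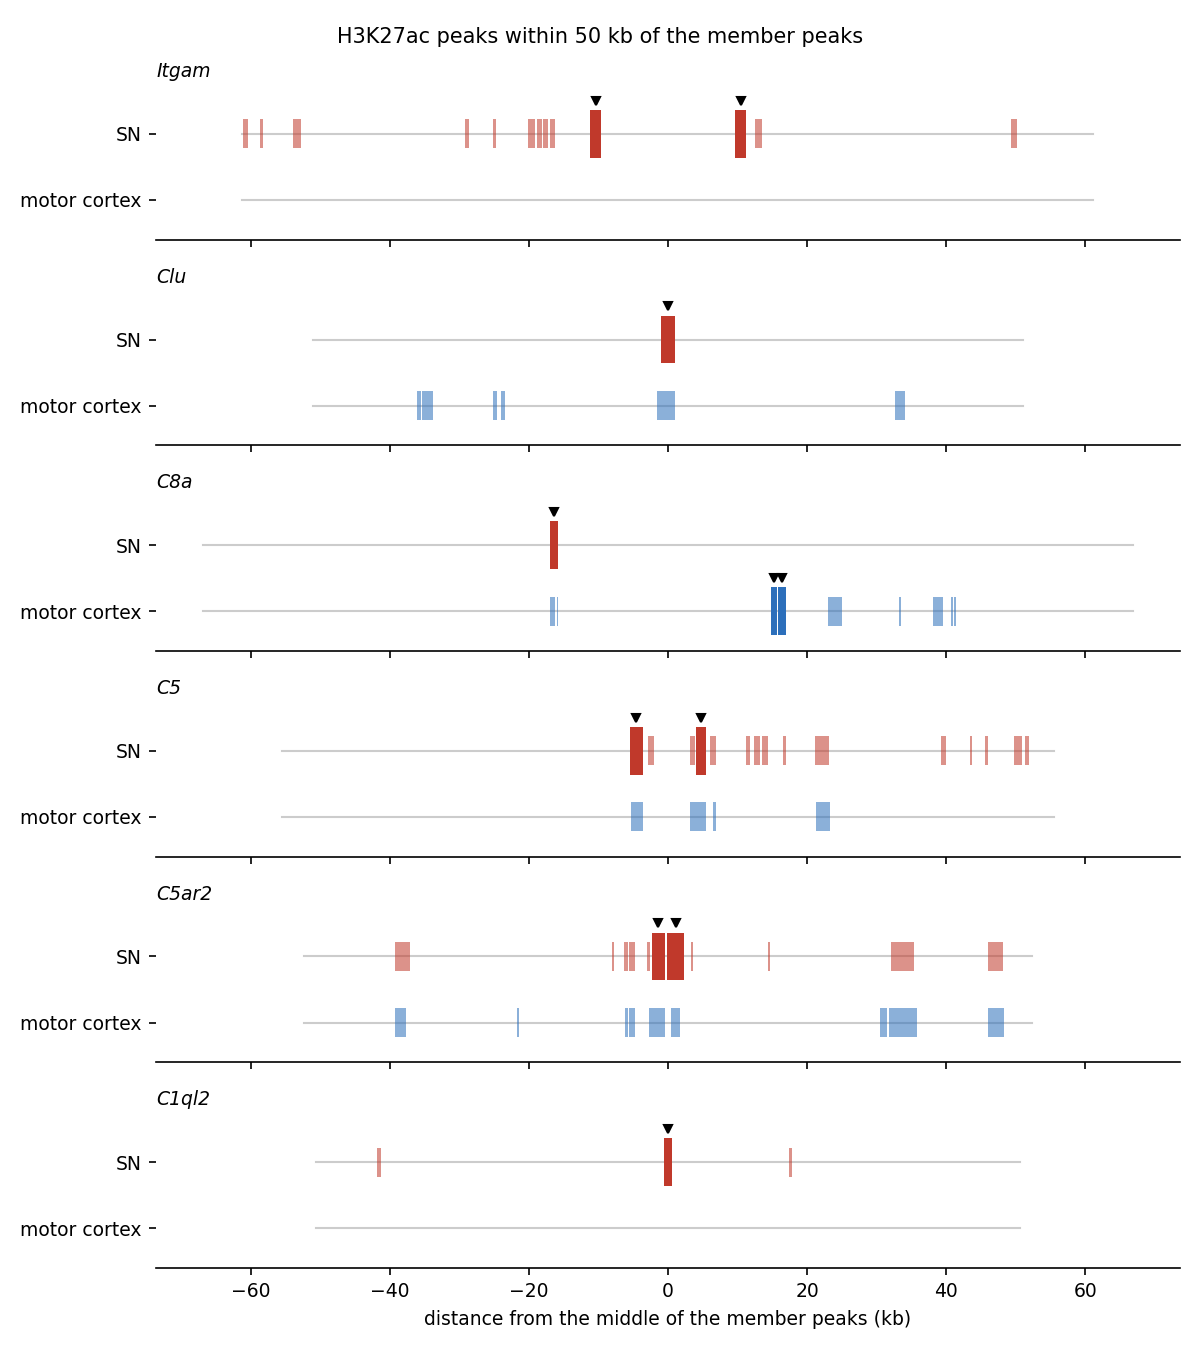
Position of listed H3K27ac peaks around the members, as distance in kb from the middle of each gene's member peaks, with SN peaks in red above motor cortex peaks in blue. Grey lines show the window searched, and tall bars under a triangle are the 11 member peaks. Itgam and C1ql2 have 13 and 3 SN peaks and no motor cortex peak, while C8a has 1 SN peak and 10 motor cortex peaks.

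The 2 C5 peaks were shared with the motor cortex, but lay at one edge of a group of peaks that was larger in the SN. Both were annotated as distal intergenic, at chr3:18427158-18429010 (1853 bp) and chr3:18436716-18438164 (1449 bp), 7705 bp apart. A motor cortex peak of 1703 bp overlapped 1666 bp, or 89.9%, of the first. The second lay wholly inside a motor cortex peak of 2332 bp, at 18435855 to 18438186, which also enclosed another SN peak of 663 bp, so that 1 motor cortex peak stood opposite 2 SN peaks separated by 153 bp. Within 50 kb the SN list held 15 peaks covering 13562 bp and the motor cortex list 4 peaks covering 6618 bp. All 4 motor cortex peaks overlapped an SN peak, and 10 of the 15 SN peaks overlapped none. In the SN these peaks were narrow, with a median of 784 bp, against 1919 bp for the 4 motor cortex peaks. The difference in number depended on narrow peaks. Among peaks of at least 1000 bp, the window held 4 SN and 3 motor cortex peaks. After merging across gaps of up to 1 kb it held 9 and 3.

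C8a was the only one of the 6 genes with member peaks in both regions, and these were different stretches. In the SN a distal intergenic peak lay at chr5:119659492-119660608 (1117 bp). It overlapped 2 motor cortex peaks, of 693 and 280 bp, which together covered 78.8% of it, so that 1 SN peak stood opposite 2 motor cortex peaks. The motor cortex members, also distal intergenic, lay at chr5:119691236-119692095 (860 bp) and chr5:119692217-119693314 (1098 bp), 121 bp apart, and neither overlapped an SN peak. The nearest SN peak, which was the C8a member of the SN, was 30.627 kb from the closer of them. The SN list held no peak for 183.289 kb beyond that member, a gap in which 9 motor cortex peaks of 251 to 1305 bp were listed and 1 SN number is missing. SN gaps of this length or longer made up 3.50% of all SN gaps, and gaps with 9 or more motor cortex peaks inside made up 0.997%. This gap was reached through motor cortex members, so these shares do not give how often a motor cortex peak lies in such a gap. C8b, the gene of the beta chain of the eighth component, is the neighbour of C8a in the gene order.

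Clu had a single member, a distal intergenic SN peak at chr15:40109524-40111537 (2014 bp). It lay wholly inside a motor cortex peak at 40109021 to 40111588 (2568 bp), of which it covered 78.4%. No other SN peak was listed within 50 kb, the nearest being 53496 bp away, whereas the motor cortex list held 6 peaks of 525 to 2568 bp covering 7301 bp. The other 5 motor cortex peaks of the window had no SN counterpart. Scara3 and Gulo flank Clu in the gene order.

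C1ql2 also had a single member, a distal intergenic SN peak at chr13:31531307-31532431 (1125 bp), and it lay far from any motor cortex peak. The nearest, at 31390779 to 31392152, was 139.154 kb away. Within 50 kb the SN list held 3 peaks covering 2050 bp and the motor cortex list 0. The gap in the motor cortex list ran from 31392152 to 31911701, or 519.548 kb, with 7 SN peaks inside and no missing motor cortex number. Gaps of this length or longer made up 0.738% of the motor cortex gaps, and 240 gaps, 0.297%, held 7 or more SN peaks. Both shares are over all motor cortex gaps, and this gap was reached through an SN member. They do not give how often an SN peak lies in such a gap. The widest SN peak in the gap, at chr13:31751275-31755886 (4612 bp), was wider than 95.8% of the SN list. Marco, a macrophage scavenger receptor, and En1, a homeobox gene of midbrain development, follow C1ql2 in the gene order, but whether this wide peak lies at either gene was not determined.

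**Figure D2:**
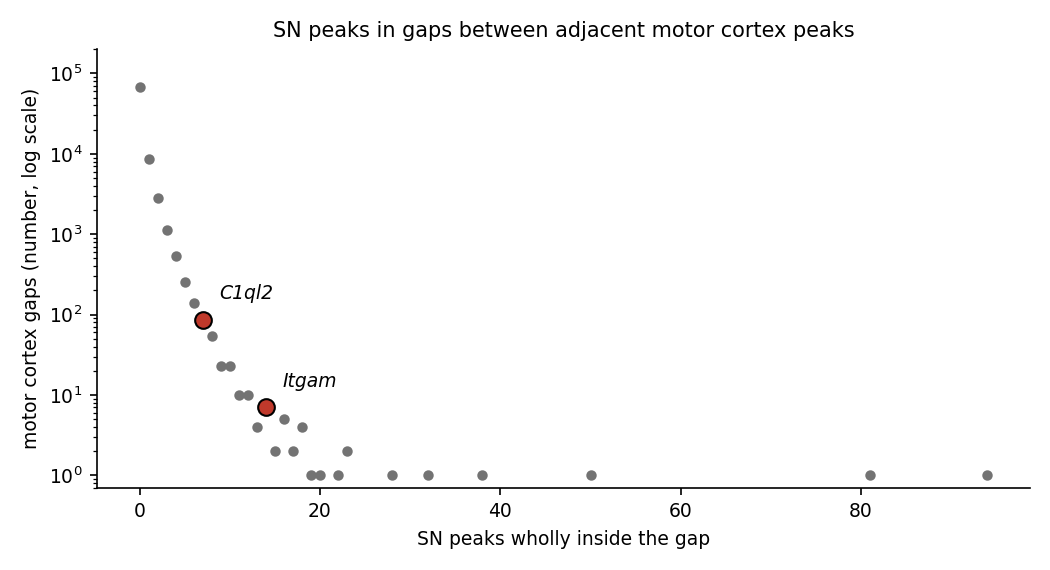
Number of gaps between adjacent motor cortex peaks, on a log scale, against the number of SN peaks lying wholly inside a gap. Each grey point is a number of SN peaks, and the red points mark the gaps that hold the members of C1ql2 (7 SN peaks) and Itgam (14 SN peaks).

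Of the 9 SN members, 6 overlapped a motor cortex peak by 1 bp or more, beside 65.3% of all 70744 SN peaks, so the members' share was near that of the list. Neither of the 2 motor cortex members overlapped an SN peak, beside 55.1% of all 80765 motor cortex peaks. Both are C8a peaks 121 bp apart and are not separate observations. The 3 SN members without a motor cortex peak, 2 of Itgam and 1 of C1ql2, also had none within 50 kb, which was the case for 1.85% of the SN list. The Itgam peaks share their surroundings and are not separate observations of this. The 1.85%, or 1307 peaks, is over all SN peaks, including 46192 that overlap a motor cortex peak. It is therefore not the share among SN peaks without an overlap, which is higher. The members of Clu and C8a were alone in the SN list within 50 kb, as were 3.99% of SN peaks. Because the members came from the authors' own selections, and the authors tested fewer SN peaks than the deposited list holds, the part of that selection in these shares was not tested.

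Within 50 kb of all members the SN list held 44 peaks covering 44625 bp and the motor cortex list 29 peaks covering 34945 bp. Of these, 15 SN peaks (34.1%) and 14 motor cortex peaks (48.3%) overlapped the other region. Over the whole lists, the shares were 65.3% for the SN and 55.1% for the motor cortex. The windows of Itgam and C1ql2 held no motor cortex peak, so leaving them out could only raise the overlapping share of the SN peaks. Without them that share was 53.6% of 28. Around a typical SN peak, the median number within 50 kb was 10 SN peaks, itself included, and 8 motor cortex peaks, with a median difference of 2 and quartiles of -1 and 5. The Itgam members had 12 and 10 more SN than motor cortex peaks within 50 kb, and the C5 members 9 and 11 more. Differences at least as high were found for 6.47% and 9.67% of the SN list at Itgam and for 11.8% and 7.94% at C5. The C1ql2 member had 3 more SN peaks, and 41.7% of the list had a difference as high. Both C5ar2 members had 2 more SN peaks, the same as the median, and 50.7% of the list had a difference as high. At C8a and Clu the order was the opposite, with 6 and 5 fewer SN than motor cortex peaks, and differences this low or lower were found for 4.30% and 6.22% of the SN list. The 6 genes thus fell on both sides of the typical difference and had no common pattern.

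**Figure D3:**
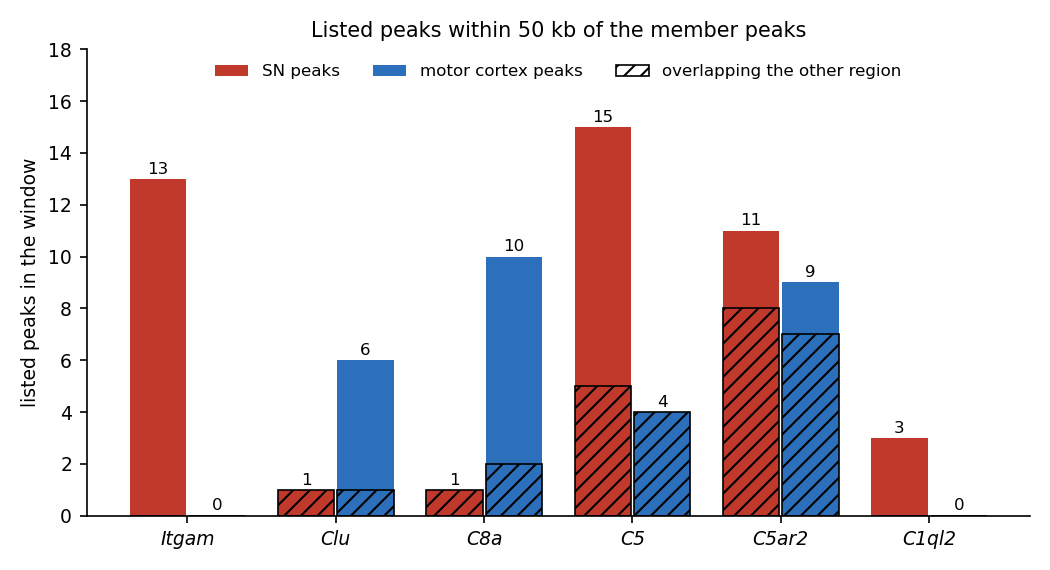
Number of listed SN peaks (red) and motor cortex peaks (blue) within 50 kb of each gene's member peaks, with the hatched part overlapping a peak of the other region. SN peaks outnumber motor cortex peaks at Itgam (13 and 0), C5 (15 and 4), C5ar2 (11 and 9) and C1ql2 (3 and 0), and the order is the opposite at Clu (1 and 6) and C8a (1 and 10).

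All 9 SN members were wider than the median of the SN list, 994 bp. Their widths ran from 1117 bp at C8a and 1125 bp at C1ql2, wider than 55.4% and 55.7% of the list, to 2409 bp for the second C5ar2 peak, wider than 85.1%. The authors tested fewer SN peaks than the list holds, so the part of their selection in these widths was not tested. The promoter peaks of C5ar2 and Itgam were 1911, 2409 and 1634 bp wide, and Clu, at 2014 bp, was the widest of the distal members. The 2 motor cortex members of C8a, at 860 and 1098 bp, were narrower than the motor cortex median of 1245 bp. When peaks up to 1 kb apart were merged, the 2 C5ar2 members became 1 stretch of 5291 bp, the 2 motor cortex members of C8a 1 stretch of 2079 bp, and the C5 members grew to 3509 and 3645 bp.

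**Figure D4:**
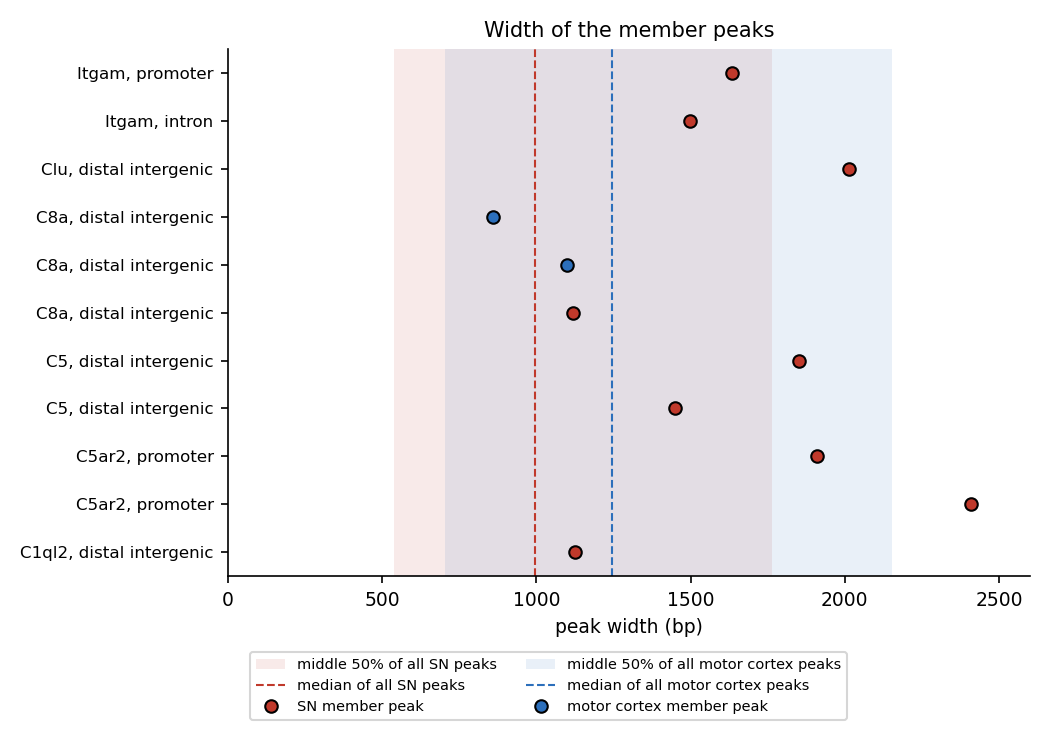
Width in bp of the 11 member peaks, with SN peaks in red and motor cortex peaks in blue, labelled by gene and by ChIPseeker annotation class. Dashed lines are the medians of the 2 lists (994 bp in the SN, 1245 bp in the motor cortex) and shaded bands hold the middle 50% of each list. All 9 SN members lie above the SN median and both motor cortex members below the motor cortex median.

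Other genes of the cascade were looked up by the same rule. Of 41 complement genes and relatives, 8 had a row that matched a listed peak, namely C1qa, C1qb, C1qc, C1qbp, C1r, C1s, C3 and C3ar1, and 33 had none. They gave 14 peaks, 9 of them from the SN list and 5 from that of the motor cortex. All 9 SN peaks were annotated to promoters and 8 of them overlapped a motor cortex peak, where 3 of the 9 SN members of the 6 genes were annotated to promoters and 6 overlapped. Over all SN peaks the overlapping share was 65.3%. The SN peaks of C1qa, C1qb and C1qc lay together, between chr5:149122085 and 149136488, and are not separate observations. The widths were alike, with a median of 1667 bp (893 to 2953 bp) for these and 1634 bp for the SN members. Of the 5 motor cortex peaks, those of C3ar1 (the receptor for C3a) and C1qb overlapped an SN peak, 4 in all, and that of C1r did not. The C3ar1 peaks likewise lay close together. Among the genes for which no matching row was found were C5ar1, C8b, Itgax and Itgb2, the beta chain that pairs with Itgam. A row with a misread name or position would be missed, so the authors' tables may still hold peaks of these genes.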

How the data were processed

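The 38 labelled runs belong to 9 rats. The authors used Trim Galore 0.6.7 for trimming, Bowtie2 2.4.4 for alignment to mRatBN7.2 and Picard 2.6.0 to remove duplicates. Reads of all rats of 1 region were pooled before MACS2 2.2.7.1 was run, with pooled input as background. FastQC 0.11.9 and featureCounts 2.0.5 are also named in the submitters' processing notes. The 2 deposited files hold the chromosome, start, end and name of each peak, and no count or signal, so depth per sample could not be computed. The paper gives coverage as higher for motor cortex than for SN libraries. The step that left gaps in the peak numbers is not given in the sources used here.

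The members were all 6 genes and every row naming them. Rows were read from a text copy of the authors' tables made from page images. A misread gene name would be missed, so numbers of rows per gene are lower bounds. Positions, gene names and annotation classes were taken from it, and the authors' fold changes, p-values and FDR values were not used. The members and gene lists were chosen with earlier results of these data known.

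Starts in the files count from 0 and are printed counted from 1. Overlaps of at least 1 bp, gaps and windows of 50 kb were computed with Python 3.11.15, numpy 2.4.6 and pandas 2.3.3. Figures were drawn with matplotlib 3.10.9. The overlap and window functions were tested on simulated peaks, where bedtools 2.31.1 was used to check the number of overlaps. Alternatives were an overlap of 50% of both peaks, a distance of up to 1 kb, windows of 25 and 100 kb, merged peaks and peaks of at least 1000 bp. The shares of gaps, the missing peak numbers and the differences in peak number around all SN peaks were added after the data had been seen. Promoters and gene order are from RefSeq (GRCr8), used without coordinates beside the lists. Comparisons of protein sequences and of patterns across samples were not run.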

Additional observations from a re-analysis of the deposited data

How the results depend on the processing

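Of 26 alternative values, 15 stayed within 1.5 times the reported count or length and 11 moved beyond it. The number of member peaks overlapping the other region was 6 with a reciprocal overlap of 50%, 6 with peaks up to 1 kb apart and 5 among peaks of at least 1000 bp. With windows of 100 kb, the context rose from 29 to 54 motor cortex peaks and from 44 to 71 SN peaks, covering 91534 bp (from 34945) and 87005 bp (from 44625). Windows of 25 kb left 22601 bp of motor cortex peaks. Merging left 19 motor cortex peaks. Among peaks of at least 1000 bp there were 14 motor cortex and 16 SN peaks, the latter covering 27971 bp, of which 9 and 9 overlapped the other region. By gene, this width limit left 4 SN and 0 motor cortex peaks at Itgam and 1 and 0 at C1ql2. It left 4 and 3 at C5, 5 and 5 at C5ar2, 1 and 3 at Clu, and 1 and 3 at C8a. In windows of 100 kb, 3 motor cortex peaks were listed at Itgam and 0 at C1ql2, against 16 and 3 SN peaks, and at Clu the SN list held 6 peaks against 12. At C8a it still held 1 against 11. The larger and smaller windows and the width limit change the counts by their own construction. No paired analysis was possible because each list pools all rats of a region and carries no value per rat, and for the same reason no replicate could be left out. Depth cannot be read from the lists, and by the study's account it was higher for the motor cortex, so its part in the differences between the lists was not tested. The same holds for the length of the SN list, which exceeds the SN peak number of the study. Which SN peaks of the windows belong to that smaller number was not determined.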
